A study of Homo sapiens with 12 samples.

Results

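The genes described here are 6 metallothioneins (MT1E, MT1F, MT1G, MT1M, MT1X and MT2A), the zinc exporter SLC30A1, the zinc importers SLC39A8 and SLC39A14, and the metal-responsive transcription factor MTF1. They were taken from the table of gene levels by symbol, and all 10 were found once among its 58735 genes. Reads were counted for 8 of them, and the same 8 passed the filter on low values that left 18079 genes for testing. MT1G and MT1M were listed at 0 in every library. RNA was sequenced from NCM460, a human intestinal epithelial cell line, in 12 libraries of poly(A)-selected RNA. The groups of 3 libraries were cells in medium, cells given TNF-α, cells given TNF-α with 5-OH-TMT, and cells given TNF-α in which HTRA2 was knocked down. 5-OH-TMT is 5-hydroxy-N,N,N-trimethyltryptamine, which the labels call Bufotenidine, and HTRA2 is a serine protease of mitochondria. TNF-α, an inflammatory cytokine, was thus shared by the last 3 groups, and the study asked what 5-OH-TMT and loss of HTRA2 change in TNF-α-stimulated cells.

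Metallothioneins are small proteins rich in cysteine that bind zinc and copper and buffer their free levels in the cell. Exporters of the SLC30A family move zinc out of the cytosol, and importers of the SLC39A family move it in. MTF1 senses free zinc and binds metal response elements in the promoters of metallothionein genes and of SLC30A1, so that a rise in zinc raises both its storage and its export. Inflammatory cytokines are known to induce SLC39A14 and SLC39A8 in several tissues, and metallothioneins respond to metals, glucocorticoids and oxidants.

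The label of the cells and the state of the libraries were looked at first. The 6 general epithelial markers, among them EPCAM, CDH1 and KRT8, averaged 1 FPKM or more each. FPKM are fragments per kilobase of gene length, scaled by a factor for each library. The sum of these epithelial markers was 2160 to 2744 FPKM. The 6 markers of colon epithelium (CDX1, CDX2, VIL1, LGALS4, CDH17 and KRT20) summed to at most 0.194 FPKM, and CDX2 was listed at 0 in all 12 libraries, so defining markers of colonocytes were at or near 0. Each library held 31008429 to 37624399 reads on genes, at which 3 reads correspond to 0.0805 to 0.0962 FPKM in a gene of 1 kb. These limits cover counting error only. Reads of the mitochondrial genome made up 2.95% of knockdown library 2 and 3.69% of TNF-α library 3, against 4.02% to 4.68% in the other 10. HTRA2 itself lay at 7.44, 7.18 and 7.22 FPKM in the knockdown and at 15.4, 14.0 and 14.2 FPKM with TNF-α. It fell by 0.98 ± 0.087 on the log2 scale (SE; limma, adjusted p = 2.77e-05), to 0.505 times its level with TNF-α alone.

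The study describes its knockdown comparison as made against a control siRNA, but the labels of the TNF-α libraries name none. Loss of HTRA2 and transfection therefore cannot be told apart by the labels. The labels number the knockdown libraries without saying whether they hold 1 siRNA or several, and they do not say that libraries of a group came from separate cultures, so p-values measure the spread between these libraries, which may be technical. In RNA from a whole culture, fewer cells that express a gene and less RNA per cell cannot be told apart.

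The metallothionein genes lie together on chromosome 16. From MT2A at chr16:56608199-56609497 to MT1X at chr16:56682424-56684196, the 6 genes span 76.0 kb (GRCh38, coordinates as in the table, and equal to GENCODE 29 for 99.9% of genes). All have a coding sequence of 186 bases, of whose 61 codons 20 are TGC or TGT, the codons of cysteine. The coding sequences follow 5′ to 3′ from the GENCODE 29 transcripts, because they show both the metal-binding cysteines and how little separates the genes that reads had to be assigned to. In MT2A capitals mark the cysteine codons. In the other 4 capitals mark the bases that differ from MT2A.

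MT2A: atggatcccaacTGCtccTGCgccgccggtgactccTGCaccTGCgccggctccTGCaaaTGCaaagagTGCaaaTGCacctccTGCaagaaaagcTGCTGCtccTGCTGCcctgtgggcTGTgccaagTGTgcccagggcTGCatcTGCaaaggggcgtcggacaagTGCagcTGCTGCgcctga

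MT1E: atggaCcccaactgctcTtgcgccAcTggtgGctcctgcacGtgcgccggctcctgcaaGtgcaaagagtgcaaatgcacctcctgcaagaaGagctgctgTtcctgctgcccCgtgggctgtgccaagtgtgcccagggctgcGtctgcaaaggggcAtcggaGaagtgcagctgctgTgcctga

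MT1F: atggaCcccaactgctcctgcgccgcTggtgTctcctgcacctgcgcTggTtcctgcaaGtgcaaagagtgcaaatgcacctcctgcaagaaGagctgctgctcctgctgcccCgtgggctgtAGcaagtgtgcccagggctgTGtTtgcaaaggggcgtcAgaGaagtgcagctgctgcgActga

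MT1X: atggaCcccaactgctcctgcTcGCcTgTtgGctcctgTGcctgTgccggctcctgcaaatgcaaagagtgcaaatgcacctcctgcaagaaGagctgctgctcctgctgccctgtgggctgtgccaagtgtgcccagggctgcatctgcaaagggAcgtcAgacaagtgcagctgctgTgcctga

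MT1G: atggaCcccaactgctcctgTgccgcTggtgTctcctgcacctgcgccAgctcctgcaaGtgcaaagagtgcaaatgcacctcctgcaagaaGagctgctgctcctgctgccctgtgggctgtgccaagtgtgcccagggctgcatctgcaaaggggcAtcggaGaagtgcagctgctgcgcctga

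The fewest differences from MT2A, 9 bases, were in MT1G, against 14 in MT1E, 14 in MT1X, 16 in MT1F and 19 in MT1M. Over all 15 pairs of the 6 genes, 88.7% to 95.2% of the coding bases were identical. Longer stretches of the transcripts, which include bases outside the coding sequence, were mostly distinct. Of the 50-base words in its transcripts, MT2A shared 3.02% with other genes, MT1F 1.22%, MT1E 7.10%, MT1M 9.87%, MT1G 16.5% and MT1X 18.3%. At 100 bases none was shared by MT2A, MT1E, MT1F, MT1G or MT1M. MT1X still shared 11.3%, with AC026461.1. That transcript overlaps 1727 of the 1773 bases of MT1X on the same strand and had 0 reads. How the counting treated reads that fit several genes, and whether it used strand, is not given in the sources used here. How reads were split between MT1X and AC026461.1, or whether some were left out of both, is therefore uncertain. The same holds for reads that fit several metallothioneins or their copies.

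Expression in the cluster was uneven. Of 18 genes listed from MT4 to MT1X, 4 averaged 1 FPKM or more, and these were MT2A, MT1E, MT1F and MT1X. Another 9 were at 0 in all 12 libraries, including MT1G at chr16:56666731-56668065 and MT1M at chr16:56632233-56633986. A count of 0 allows up to 0.107 to 0.128 FPKM of MT1G and up to 0.0854 to 0.102 FPKM of MT1M, depending on the library. MT1E lies at chr16:56625475-56627112 and MT1F at chr16:56657694-56660698. The gene listed after each of them, MT1M and MT1G, had no reads, while those listed before, MT1L and MT1B, averaged 0.259 and 0.0118 FPKM.

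**Figure D1:**
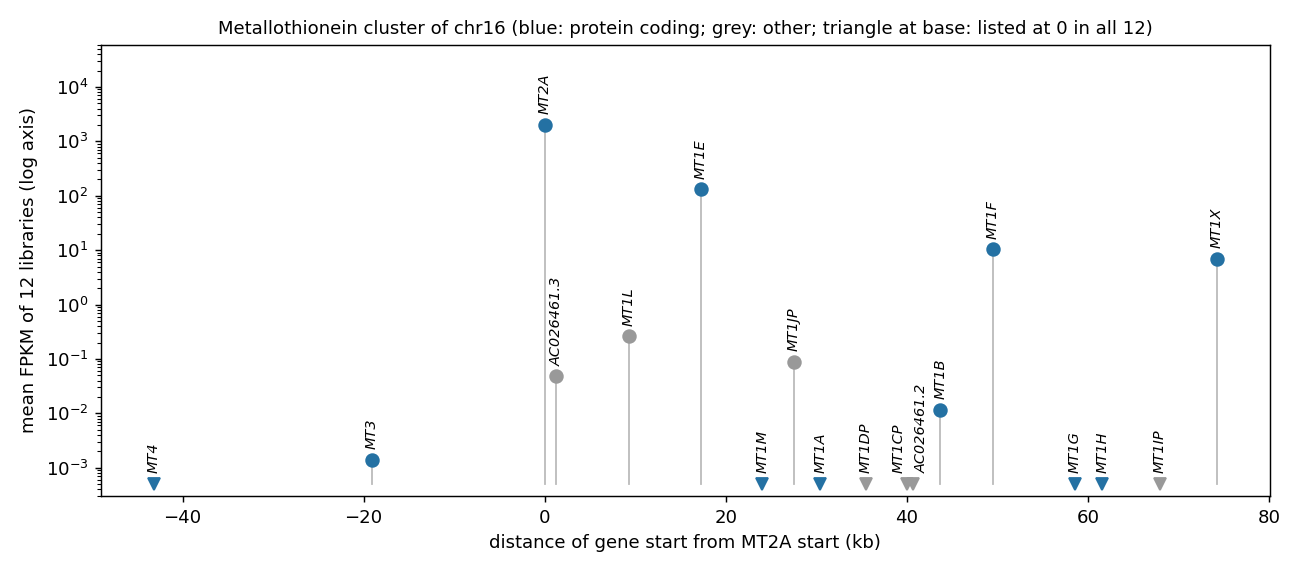
Mean FPKM over the 12 libraries (log axis) of each gene listed in the metallothionein cluster, against the distance of its start from the start of MT2A in kb. Circles are genes with reads and triangles at the base are genes at 0 in all 12 libraries. MT2A stands at 2010 FPKM and MT1E at 130 FPKM, and MT1F and MT1X are the other genes above 1 FPKM.

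MT2A supplied nearly all metallothionein mRNA. Its 58140 to 129762 reads per library gave a mean of 2010 FPKM, which was 89.6% to 94.9% of the summed FPKM of the metallothioneins. Leaving out genes of the mitochondrial genome, MT2A ranked 9 to 10 by FPKM in medium, 2 to 6 with TNF-α, 4 to 5 with 5-OH-TMT added, and 1 to 2 in the knockdown. After MT2A, the mean levels followed in the order MT1E at 130 FPKM, SLC39A14 at 20.2 FPKM, MT1F at 10.3 FPKM, SLC39A8 at 6.96 FPKM, MT1X at 6.80 FPKM, SLC30A1 at 4.39 FPKM and MTF1 at 3.18 FPKM. The ranges over the 12 libraries did not overlap between MT2A, MT1E, SLC39A14 and MT1F, while each of the last 5 genes overlapped its neighbours in this order. The fewest reads behind any of these values were the 294 of MT1X in medium library 1.

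**Figure D2:**
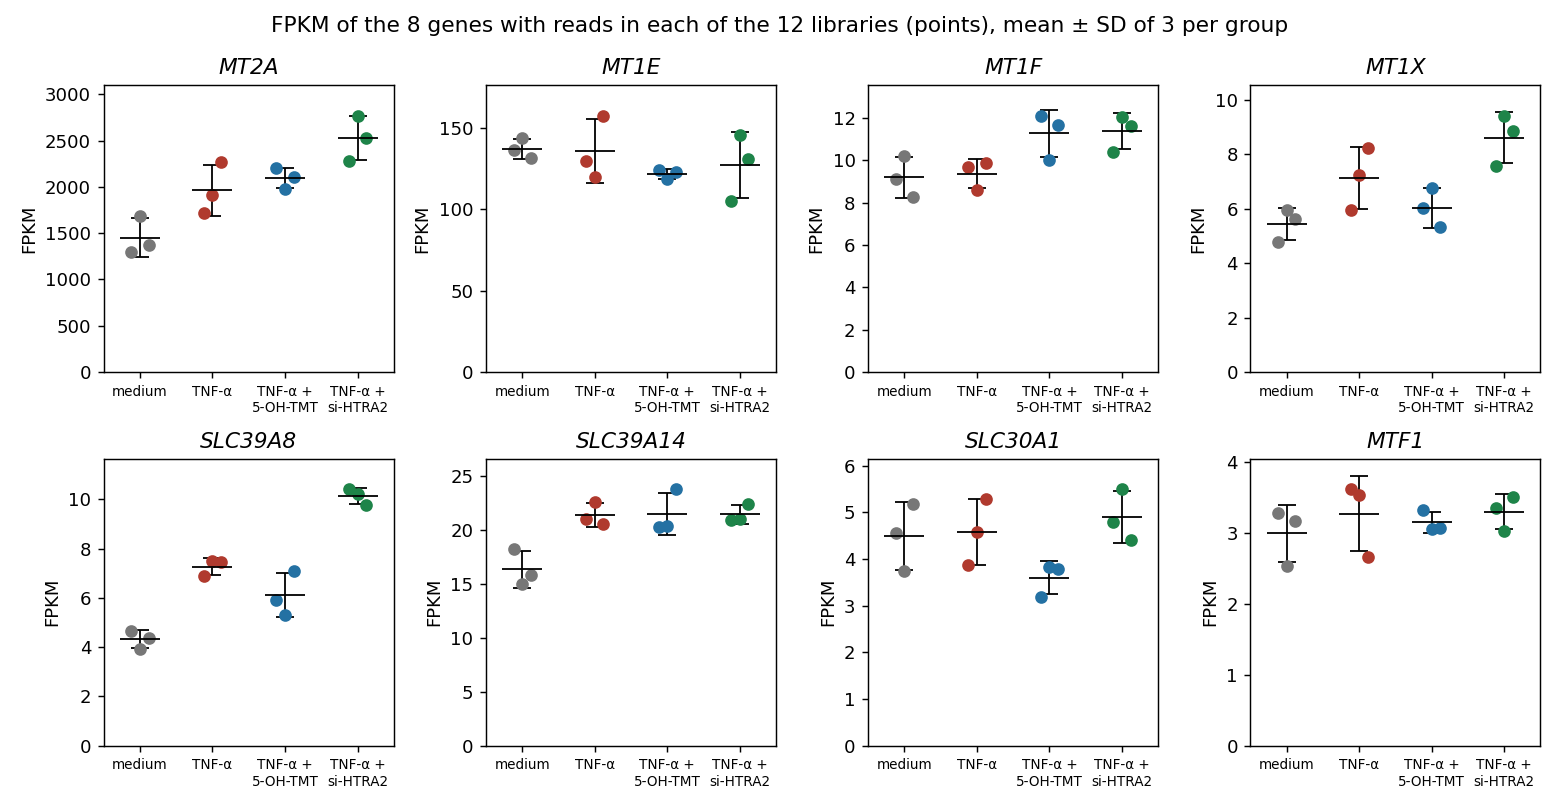
FPKM (linear axes from 0) of the 8 genes with reads, with 1 point per library in each of the 4 groups and bars for the mean ± SD of 3. The knockdown libraries sit above all others for MT2A (2284 to 2770 FPKM) and SLC39A8 (9.78 to 10.4 FPKM). The medium libraries sit below all others for SLC39A8, SLC39A14 and, by a narrow gap, MT2A.

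TNF-α against medium asked which of these genes respond to the cytokine alone. Both zinc importers rose, SLC39A8 by 1.67-fold and SLC39A14 by 1.31-fold, and no member fell. SLC39A8, which carries zinc, iron, manganese and cadmium across the cell surface, stood at 4.66, 3.92 and 4.39 FPKM in medium and at 6.88, 7.48 and 7.45 FPKM with TNF-α. Every TNF-α library thus lay above every medium library, as also held upward for 11.1% of all genes tested. The log2 fold change of SLC39A8 was 0.74 ± 0.10 (SE; limma on log2(FPKM + 0.1), adjusted p = 0.00102, higher in 3 of 3 libraries). SLC39A14, an importer of zinc and iron that cytokines induce in the acute phase, stood at 18.3, 14.9 and 15.8 FPKM in medium and at 21.0, 22.6 and 20.6 FPKM with TNF-α. These groups did not overlap either, with a log2 fold change of 0.39 ± 0.087 (SE; limma, adjusted p = 0.0250). The call for SLC39A14 was lost when any of 5 of the 6 libraries was left out (adjusted p 0.0118 to 0.107 over the 6), while SLC39A8 stayed called in each case (0.00289 to 0.00724). The 2 called of 8 members tested compare with 3.22% of all 18079 genes called higher (582) and 0.885% called lower (160). The median of the 8 was 0.25 on the log2 scale, against -0.0020 over all 18079.

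The metallothioneins did not pass the test with TNF-α. MT2A stood at 1292, 1689 and 1373 FPKM in medium and at 1723, 1908 and 2265 FPKM with TNF-α. The lowest TNF-α library lay only just above the highest medium library, as also held upward for 11.1% of all genes tested. Its log2 fold change was 0.44 (95% interval 0.16 to 0.72; limma, adjusted p = 0.0895). It passed the threshold with the filter raised to a mean of 1 FPKM (adjusted p = 0.0446), with voom on recovered reads (0.00955) and without medium library 2 (0.0345), and the adjusted p over the other settings reached 0.392. MT1X stood at 4.79, 5.94 and 5.61 FPKM in medium and at 5.93, 7.22 and 8.21 FPKM with TNF-α, overlapping at the edge (log2 fold change 0.37, adjusted p = 0.188). MT1E and MT1F differed by -0.02 and 0.03 on the log2 scale, with 95% intervals of -0.28 to 0.23 for MT1E and -0.19 to 0.25 for MT1F. The summed FPKM of the metallothioneins was 1603 ± 216 in medium and 2117 ± 294 with TNF-α (SD, n = 3), a sum that follows MT2A.

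SLC30A1 and MTF1, the exporter and the sensor, did not pass the test with TNF-α. SLC30A1 had 3.74 to 5.18 FPKM in medium and 3.88 to 5.30 FPKM under the cytokine, and differed by 0.03 on the log2 scale with a 95% interval of -0.28 to 0.34. MTF1 had 2.54 to 3.28 FPKM in medium and 2.66 to 3.62 FPKM under the cytokine, and differed by 0.12 on the log2 scale with an interval of -0.17 to 0.40. Differences as large as that of SLC39A8 lie outside both intervals.

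5-OH-TMT added to TNF-α was compared with TNF-α alone to see whether the compound moves these genes in stimulated cells. No member passed the test, where 0.0387% of all genes did so (7 of 18079). At an unadjusted p under 0.05 there were 3 members (MT1F, SLC30A1 and SLC39A8), against 20.1% of all genes, and voom on the recovered reads also called none of the 8. MT1F stood at 12.1, 10.03 and 11.7 FPKM with 5-OH-TMT against 9.67, 8.58 and 9.85 FPKM with TNF-α alone. These libraries did not overlap (log2 fold change 0.26, 95% interval 0.04 to 0.48, adjusted p = 0.187). SLC30A1 lay at 3.19, 3.82 and 3.79 FPKM against 3.88, 4.57 and 5.30 FPKM, all below by a narrow gap (-0.33, interval -0.65 to -0.02, adjusted p = 0.227). Such separation was frequent in this comparison, at 16.3% of all genes upward and 15.5% downward.

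The importers and the most abundant metallothionein were as follows with 5-OH-TMT. SLC39A8 stood at 5.91, 5.32 and 7.07 FPKM, between the medium and the TNF-α means, and its highest library overlapped those with TNF-α alone. The log2 fold change was -0.26 (interval -0.48 to -0.04, adjusted p = 0.194). MT2A stood at 2200, 1977 and 2110 FPKM, within the range of the TNF-α libraries (0.10, interval -0.18 to 0.38, adjusted p = 0.689). SLC39A14 at 20.3, 20.4 and 23.7 FPKM gave the smallest difference, 0.0025 on the log2 scale, with an interval of -0.19 to 0.19. MT1X, MT1E and MTF1 differed by -0.23, -0.15 and -0.04 on the log2 scale, and their libraries overlapped those with TNF-α alone. A change of 2-fold in either direction lies outside the intervals of all 8 genes.

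The knockdown of HTRA2 under TNF-α was compared with TNF-α alone, the same 3 control libraries as above. SLC39A8 rose again, by 1.39-fold, and it was the only member called. It stood at 10.4, 10.2 and 9.78 FPKM in the knockdown against 6.88, 7.48 and 7.45 FPKM. These groups did not overlap, as also held upward for 17.5% of all genes tested. The knockdown libraries lay close together and lay above every library of the other 3 groups. The log2 fold change was 0.47 ± 0.10 (SE; limma, adjusted p = 0.00752, higher in 3 of 3 libraries), and it stayed under the threshold without each of the 6 libraries (0.0180 to 0.0340). This 1 of 8 members compares with 9.35% of all genes called higher and 8.08% called lower (1691 and 1461 genes). The 8 members had a median of 0.19 on the log2 scale, and all genes tested one of -0.0034. From medium to the knockdown, the mean FPKM of SLC39A8 rose in both steps, and the ratio of these means was 2.34.

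A lincRNA, AC098487.1, overlaps SLC39A8 over 12657 bases on the same strand within chr4:102251041-102431258. It had 70 to 81 reads per library in the knockdown and 16 to 59 in the other groups, against 816 to 2431 reads for SLC39A8. Its reads are thus few beside those of SLC39A8, and 1.52% of the 100-base words of SLC39A8 transcripts are shared with it. Its part in the result was not tested.

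The metallothioneins MT2A, MT1F and MT1X had higher means in the knockdown without passing the test. MT2A stood at 2284, 2770 and 2532 FPKM, against 1723, 1908 and 2265 FPKM with TNF-α alone. The lowest knockdown library and the highest TNF-α library were close, and the groups did not overlap, as also held upward for 17.5% of all genes tested. The log2 fold change was 0.37 (95% interval 0.09 to 0.65, adjusted p = 0.0684). The call was made with the filter raised to a mean of 1 FPKM (0.0366), with libraries scaled to a fixed FPKM sum (0.0421), with voom (0.00956) and without TNF-α library 3 (0.0384), and the adjusted p over the other settings reached 0.280. MT1F stood at 10.4, 12.04 and 11.6 FPKM against 9.67, 8.58 and 9.85 FPKM, without overlap (0.28, interval 0.05 to 0.50, adjusted p = 0.0842). MT1X stood at 7.57, 9.41 and 8.84 FPKM against 5.93, 7.22 and 8.21 FPKM, with overlap (0.28, interval -0.02 to 0.57, adjusted p = 0.191).

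Knockdown library 2, which had the lowest share of mitochondrial reads, had the highest MT2A, MT1E, MT1F, MT1X and SLC30A1 of its group. TNF-α library 3, with the next lowest share, likewise had the highest MT2A, MT1E, MT1F, MT1X and SLC30A1 of its own. Medium library 2, at 4.45% the library of lowest share in its group, also had the highest MT2A, MT1E, MT1F and MT1X of that group. In the 5-OH-TMT group, by contrast, the library of lowest share had the lowest MT2A. Without knockdown library 2 the log2 fold change of MT2A was 0.30 (adjusted p = 0.163) and that of SLC39A8 0.47 (0.0181). The part of these libraries' composition in the MT2A result was not tested.

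MT1E, SLC39A14, SLC30A1 and MTF1 lay close to TNF-α alone in the knockdown. MT1E had 105, 146 and 131 FPKM against 130, 120 and 157 FPKM, a log2 fold change of -0.10 with an interval of -0.35 to 0.16. SLC39A14 had 20.9, 21.0 and 22.4 FPKM and differed by 0.0030, with an interval of -0.19 to 0.19. Its level thus stayed within the TNF-α range while that of the related importer SLC39A8 rose. SLC30A1 and MTF1 differed by 0.10 and 0.02, with intervals of -0.21 to 0.41 for SLC30A1 and -0.26 to 0.31 for MTF1.

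**Figure D3:**
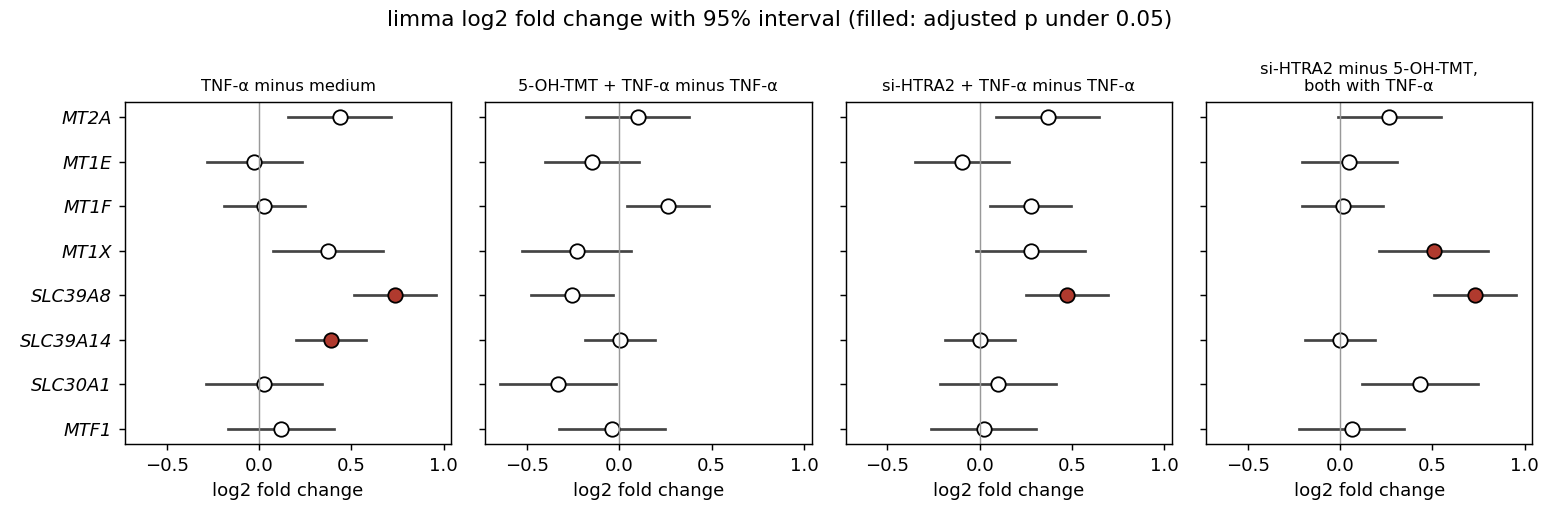
The limma log2 fold change of each of the 8 genes (points) with its 95% interval (lines) in the 4 comparisons, filled where the adjusted p was under 0.05. SLC39A8 is filled in 3 panels (0.74, 0.47 and 0.73), SLC39A14 with TNF-α only (0.39), MT1X between the knockdown and 5-OH-TMT only (0.51), and none is filled for 5-OH-TMT against TNF-α.

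Loss of HTRA2 and 5-OH-TMT, which the study set side by side, were then compared directly, since their separate comparisons share the TNF-α libraries. SLC39A8 was higher in the knockdown than with 5-OH-TMT, at 9.78 to 10.4 against 5.32 to 7.07 FPKM (log2 difference 0.73 ± 0.10 (SE), limma adjusted p = 8.65e-04). Against TNF-α alone it had differed by 0.47 in the knockdown and by -0.26 with the compound. MT1X was also higher, at 7.57 to 9.41 against 5.31 to 6.76 FPKM (0.51 ± 0.14 (SE), adjusted p = 0.0271). Its call was lost with no filter (0.0556), without the variance trend (0.0531) and without any of 4 of the 6 libraries (up to 0.0962), among them knockdown library 2 (0.0924). The 2 of 8 members called higher compare with 7.85% of all genes called higher and 7.43% called lower in this comparison.

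SLC30A1 had 4.41 to 5.49 FPKM in the knockdown and 3.19 to 3.82 FPKM with 5-OH-TMT, without overlap, as held upward for 18.2% of all genes (0.43, interval 0.12 to 0.75, adjusted p = 0.0625). It was called with the filter raised to a mean of 1 FPKM and with voom, the lowest adjusted p being 0.0233. MT2A had 2284 to 2770 against 1977 to 2200 FPKM, also without overlap (0.27, interval -0.01 to 0.55, adjusted p = 0.185). MT1F, which had a higher mean than TNF-α alone in both groups, differed by 0.01 between them, with an interval of -0.21 to 0.24. No member had a fold change of 2 or more with an unadjusted p of at most 0.05 in any of the 4 comparisons, the criterion the study used for differentially expressed genes, which 2.73%, 1.5%, 4.23% and 3.19% of all genes met in the order given.

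The remaining zinc transporters were counted next. Of 9 other exporters 6 passed the filter, and of 12 other importers 10 did. None of these 16 passed the test with TNF-α or with 5-OH-TMT. In the knockdown against TNF-α, 1 importer rose and 1 fell, and no exporter was called, beside 9.35% of all genes called higher and 8.08% called lower. SLC39A11, another importer of the family, had 7.12, 6.97 and 7.60 FPKM in the knockdown and 4.45, 3.76 and 3.95 FPKM with TNF-α. The groups lay far apart (log2 fold change 0.82 ± 0.091 (SE), limma adjusted p = 1.11e-04), and its difference was larger than that of SLC39A8. Separation upward held for 17.5% of all genes tested. SLC39A4, the importer through which enterocytes take up dietary zinc, had 13.3, 13.2 and 14.1 FPKM in the knockdown, below the 17.2 ± 1.11 FPKM (SD, n = 3) of all TNF-α libraries. It fell by 0.35 on the log2 scale (SE 0.10, adjusted p = 0.0333), a call lost with no filter, without the variance trend and without any of 5 of the 6 libraries (adjusted p up to 0.108). Against 5-OH-TMT, the knockdown was higher for SLC39A11 (0.62, adjusted p = 0.00122) and for SLC30A9, an exporter of mitochondria (0.45, adjusted p = 0.0234), and lower for SLC39A4 (-0.48, adjusted p = 0.00847). Of all genes, 7.85% were called higher and 7.43% lower between knockdown and 5-OH-TMT. The call for SLC30A9 was lost without any of 4 of the 6 libraries (adjusted p up to 0.0871). The most abundant transporter of either family was SLC39A7, which releases zinc from the endoplasmic reticulum, with group means of 86.9 to 94.3 FPKM and no call.

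**Figure D4:**
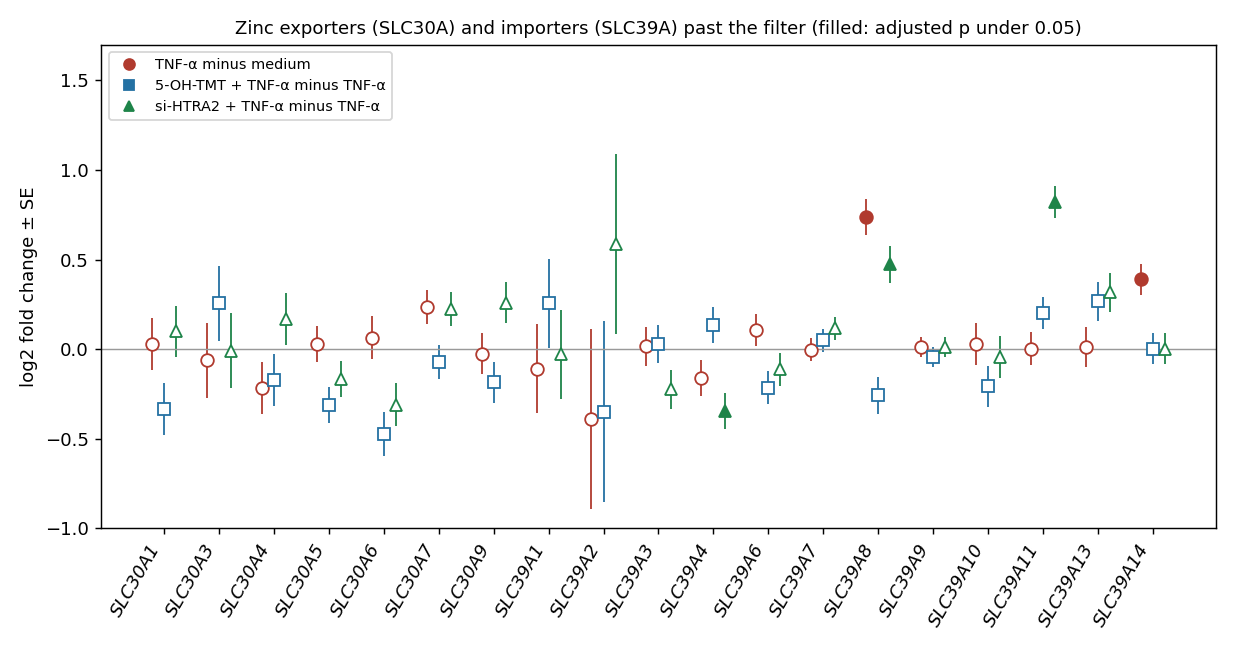
The limma log2 fold change (± SE) of every zinc exporter and importer that passed the filter, SLC30A1, SLC39A8 and SLC39A14 included, against medium (circles) or against TNF-α (squares for 5-OH-TMT, triangles for the knockdown), filled where the adjusted p was under 0.05. The filled points are SLC39A8 (0.74) and SLC39A14 (0.39) with TNF-α and SLC39A8 (0.47), SLC39A11 (0.82) and SLC39A4 (-0.35) in the knockdown.

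The other metallothionein genes and pseudogenes added little. Of 15, 4 passed the filter and 0 were called by limma in any comparison, 0 also at an unadjusted p under 0.05. MT2P1, a pseudogene of MT2A, had 6.02 to 23.0 FPKM from 36 to 152 reads, with its highest value in knockdown library 2, where MT2A was highest too. Whether these reads came from MT2P1 or from MT2A was not tested.

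Genes other than transporters and metallothioneins that metals or oxidants are known to induce were counted as well. Of 7 tested of 8 listed, 4 fell in the knockdown against TNF-α and none rose, where 8.08% of all genes were called lower and 9.35% higher. They were the heat shock chaperones HSPA1A (-0.81) and HSPA1B (-0.58), the glutathione synthesis subunit GCLM (-0.60) and the growth factor PGF (-0.97), with adjusted p from 8.85e-04 to 0.00532. The call for PGF was lost when only the 2 groups were fitted (adjusted p = 0.0558). HMOX1 (-0.12), DNAJB1 (-0.11) and GCLC (-0.26) were not called. HSPA1A and HSPA1B are near-identical copies, so the split of reads between them is uncertain. Against 5-OH-TMT 5 were lower in the knockdown, where 7.43% of all genes were, HSPA1A (-0.99), HSPA1B (-0.81), PGF (-0.75), HMOX1 (-0.51), a heme-degrading enzyme, and DNAJB1 (-0.36), a co-chaperone. Of these, the call for PGF was lost with no filter (adjusted p = 0.0564), with only 2 groups (0.0977) and without any of 5 of the 6 libraries, and that for HMOX1 with only 2 groups (0.0638) and without any of 4 of the 6. With TNF-α, DNAJB1 fell by 0.28 on the log2 scale (adjusted p = 0.0459), a call that 4 of 11 alternative settings lost and that was lost without any of 5 of the 6 libraries (up to 0.171), and with 5-OH-TMT none of the 7 was called. The 7 had a median of -0.58 on the log2 scale in the knockdown, where all genes had -0.0034. HSPA1A and HSPA1B count as 2 of the 7, and the list was chosen with earlier results of these data known.

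Single markers of other cell types differed between groups as well. The summed FPKM of 6 fibroblast markers was 1.001 to 1.46 in the first 3 groups and 2.60 to 3.24 in the knockdown, almost all of it COL1A1, with DCN at 0. That of 4 endothelial markers was 0.491 to 0.597 in medium, 1.42 to 1.57 with TNF-α, 1.77 to 2.01 with 5-OH-TMT and 2.21 to 3.62 in the knockdown, mostly CDH5, with KDR at 0. The 4 leukocyte markers with reads (PTPRC, CD14, CD68 and ITGAM) summed to 0.231 to 0.521 FPKM in medium, 0.118 to 0.274 with TNF-α, 0.320 to 0.454 with 5-OH-TMT and 0.417 to 0.885 in the knockdown, and CD3E was at 0. Against TNF-α alone, the knockdown was higher for COL1A1 (log2 fold change 1.23, limma adjusted p = 1.26e-04), CDH5 (0.997, adjusted p = 0.00237) and CD14 (1.41, adjusted p = 0.0163). CD14 rested on 20 to 50 reads per knockdown library against 4 to 10 with TNF-α. Its mean was 0.443 FPKM in the knockdown, 0.0946 FPKM with TNF-α and 0.397 FPKM in medium. Its call was lost with only 2 groups (0.0541) and without any of 3 of the 6 libraries (up to 0.0618). Of the 6 epithelial markers 2 were also higher in the knockdown, CDH1 (0.40, adjusted p = 0.00108) and KRT19 (0.77, adjusted p = 0.00440). These calls stand beside 9.35% of all genes called higher and 8.08% called lower in the same comparison. With TNF-α, CDH5 rose by 1.71 on the log2 scale (adjusted p = 1.12e-04), where 3.22% of all genes were called higher. PECAM1 did not follow CDH5, averaging 0.148, 0.112, 0.131 and 0.158 FPKM in medium, TNF-α, 5-OH-TMT and knockdown libraries. Nor did VWF, at 0.0778, 0.0573, 0.0874 and 0.0860 FPKM in the same order. Against 5-OH-TMT, the knockdown was higher for COL1A1 (1.07), CDH1 (0.42) and CDH5 (0.70), the last a call lost without any of 4 of the 6 libraries (adjusted p up to 0.0850). In that comparison 7.85% of all genes were called higher. The part of these markers in the results above was not tested.

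The metallothioneins and importers were also compared by pattern with MT2A. Over the 12 libraries, the Pearson correlation of log2(FPKM + 0.1) with MT2A was 0.82 for MT1X, 0.82 for SLC39A8, 0.77 for MT1F and 0.64 for SLC39A14. It was 0.08 for SLC30A1, -0.01 for MTF1 and -0.04 for MT1E. MT1E, of the same cluster, thus did not share the pattern of MT2A over the 12 libraries. Within medium, TNF-α and the knockdown, however, the library highest in MT2A was also highest in MT1E. Among 11177 other genes that averaged 1 FPKM or more, the closest were C2, a complement component (0.96), WRNIP1 (0.95), HLA-E, a class I histocompatibility molecule (0.95), IRF2BP2 (0.95) and N4BP3 (0.94). HLA-E for example averaged 95.0, 121, 131 and 169 FPKM in medium, TNF-α, 5-OH-TMT and knockdown cells. These correlations describe libraries that share group differences, depth and composition.

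Promoter sequence bears on these patterns only as a description. RefSeq starts (GRCh38.p14) were matched for MT2A, MT1X, SLC30A1, SLC39A8 and MTF1. The core of the metal response element, the site MTF1 binds, was searched on both strands as TGCACNC or TGCGCNC in the 250 bases before each start. The windows of MT2A and MT1X are given because they hold the most matches and because MT2A and MT1X had similar patterns across the libraries. Capitals mark the matches.

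MT2A promoter, chr16:56608334-56608583, plus strand: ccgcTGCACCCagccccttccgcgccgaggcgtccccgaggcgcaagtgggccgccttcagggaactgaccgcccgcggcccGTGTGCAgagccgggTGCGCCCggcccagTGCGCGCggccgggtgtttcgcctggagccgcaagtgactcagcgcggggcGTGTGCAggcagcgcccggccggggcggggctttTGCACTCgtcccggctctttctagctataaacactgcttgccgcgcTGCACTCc

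MT1X promoter, chr16:56682220-56682469, plus strand: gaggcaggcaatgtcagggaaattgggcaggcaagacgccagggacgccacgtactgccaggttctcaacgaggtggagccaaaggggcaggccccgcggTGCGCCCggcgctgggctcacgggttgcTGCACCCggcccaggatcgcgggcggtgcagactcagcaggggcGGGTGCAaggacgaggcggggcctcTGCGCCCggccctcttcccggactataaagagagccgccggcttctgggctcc

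MT2A had 7 matches, starting at -246, -168, -153, -139, -88, -54 and -8 from the RefSeq start, and MT1X had 4, at -150, -122, -78 and -53. Both RefSeq starts lie downstream of the starts listed with the gene levels. The whole MT2A window thus lies within the gene as listed (chr16:56608199-56609497), and the MT1X window reaches past its listed start at chr16:56682424. SLC30A1 had 1 match, MTF1 had 0, and SLC39A8 had 1 before one of its 3 listed starts. Of all 35116 promoter windows, 24.8% held at least 1 match, 1.58% at least 3 and 0.120% at least 5. The κB site, the sequence through which NF-κB acts downstream of TNF-α, was found in 5.21% of all windows. It was found in none of the windows of MT2A, MT1X, SLC30A1, SLC39A8 and MTF1. At that rate, no match in so few windows cannot show that these genes lack κB sites. Sequence outside the windows was not searched, and neither was the promoter of SLC39A14.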

How the data were processed

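Libraries of poly(A)-selected RNA were made with the NEBNext Ultra kit from NCM460 cells, 3 in each of 4 groups. The authors deposited FPKM values in 1 table, beside the length they used for each gene. The submitters' processing notes name CASAVA 1.8, HISAT2 2.0.4, HTSeq 0.9.1 and hg38 without their roles. The dose and time of TNF-α, the scaling of the FPKM and the use of strand are not given in the sources used here. Multiplying FPKM by gene length and 1 factor per library gave whole reads for 100% of values (tolerance 0.01 reads). Reads between libraries of a group differed by more than counting error (chi-squared per gene 6.87 to 40.8). The highest values, 31.4 and 40.8, were those of knockdown library 2 against the others of its group.

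Group means were estimated with limma 3.58.1 in R 4.3.3 on log2(FPKM + 0.1) of the 18079 genes averaging at least 0.1 FPKM, with eBayes and a trend on 8 residual degrees of freedom. Fold changes are on this scale, which understates those of low genes. Tests were two-sided, and p-values were adjusted over all genes tested by the Benjamini-Hochberg method, with calls at an adjusted p under 0.05. Intervals are 95% intervals of the moderated fit. An exact permutation test of 3 libraries against 3 cannot give a p below 0.1. The model was also run on simulated counts with the same spread beyond counting error for every gene. That run does not check the model on the spread seen here. Named are all 10 members, HTRA2, each gene of the other lists called in any comparison, and the 5 genes most correlated with MT2A. MT2P1, SLC39A7, AC098487.1 and AC026461.1 were named after their values were seen. The members and lists were chosen with earlier results of these data known. One marker gene is not reported here. Alternatives were other pseudocounts, filters, scalings and variance models, only the 2 groups compared, the replicate number as a block, each library left out in turn and voom on the recovered reads. Sequences came from GENCODE 29 (coding) and RefSeq (promoters, 5 of 10 members matched), and promoters of MT1E, MT1F, MT1G, MT1M and SLC39A14 were not used here.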

Additional observations from a re-analysis of the deposited data

How the results depend on the processing

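Outside counts of calls, 629 of 659 values under alternative settings kept their direction and side of the threshold, 18 fell short of it, 7 passed it and 5 changed sign. With single libraries left out these were 292, 39, 2 and 27 of 360. SLC39A8 kept its 3 calls in all of them. With quantile normalization, MT1F with TNF-α was -0.0016, SLC39A14 -0.037 with 5-OH-TMT but -0.0060 in knockdown cells, where MTF1 was -0.0047. With a fixed FPKM sum, SLC39A14 with 5-OH-TMT was -0.038. The genes called with TNF-α fell from 742 to 392 when only those 2 groups were fitted, and the members called from 2 to 1 there, without the variance trend and under the block. For 5-OH-TMT, 7 genes were called, and 3 with a pseudocount of 1, 127 with the filter at 1 FPKM, 4 with quantile normalization, 15 with a fixed sum, 911 with only 2 groups, 1 without the trend and 338 with voom. Members called in the knockdown rose from 1 to 2 with the filter at 1 FPKM, the fixed sum and voom, and between knockdown and 5-OH-TMT fell from 2 to 1 with no filter or no trend. The cause of these shifts was not tested. With the fixed sum, 63.5% of knockdown calls were upward against 53.6%, and 63.2% against 51.4% between knockdown and 5-OH-TMT. The planned edgeR and DESeq2 fits on the recovered reads were not run. Voom, the only fit to those reads, was chosen after seeing the data.

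Replicate numbers paired libraries poorly. Over 18 pairs with the same number, deviations from group means correlated by -0.37 to 0.15, and 5 exceeded 0.1. With the replicate block, 1 member was called with TNF-α (SLC39A8) and 1 gene with 5-OH-TMT. Calls lost under the block were SLC39A14 (adjusted p = 0.0583) and DNAJB1 (0.0663) with TNF-α and SLC39A4 in the knockdown (0.0501), and no other named gene's.

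With single libraries left out, counts of genes were 526 to 645 with TNF-α, 1 to 5 with 5-OH-TMT, 2015 to 3337 in the knockdown and 1314 to 2706 between knockdown and 5-OH-TMT, and members called were 1 to 2 in each but 5-OH-TMT (0). In the knockdown the count fell by over 1.5 times without TNF-α library 2 (2062) or knockdown library 1 (2015), and between knockdown and 5-OH-TMT without 5-OH-TMT library 1 (1416) or 2 (1314) or knockdown library 1 (1757) or 2 (1770). Log2 fold changes that changed sign were within these ranges. With TNF-α they were -0.14 to 0.061 for MT1E, -0.044 to 0.11 for MT1F and -0.10 to 0.14 for SLC30A1. With 5-OH-TMT they were -0.072 to 0.043 for SLC39A14 and -0.18 to 0.036 for MTF1. In the knockdown they were -0.20 to 0.035 for MT1E, -0.012 to 0.21 for SLC30A1, -0.030 to 0.044 for SLC39A14 and -0.12 to 0.10 for MTF1. Between knockdown and 5-OH-TMT they were -0.053 to 0.18 for MT1E, -0.067 to 0.075 for MT1F and -0.04 to 0.075 for SLC39A14. Depth limits MT1G and MT1M, at 0 reads.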

Other observations

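Copper, which metallothioneins also bind, has its own carriers, and all 8 genes listed for its handling passed the filter. None was called with TNF-α, with 5-OH-TMT or in the knockdown against TNF-α. Between knockdown and 5-OH-TMT 1 was higher and 1 lower in the knockdown, where 7.85% and 7.43% of all genes were called. SLC31A1, the high-affinity copper importer, had 15.4, 15.8 and 15.7 FPKM in the knockdown and 12.5, 11.9 and 12.5 FPKM with 5-OH-TMT. The groups lay apart (log2 difference 0.35 ± 0.054 (SE), limma adjusted p = 0.00178), where separation upward held for 18.2% of all genes tested. CCS, the chaperone that loads copper into superoxide dismutase, had 19.7, 15.2 and 18.4 FPKM in the knockdown and 25.3, 24.5 and 24.6 FPKM with 5-OH-TMT (-0.49 ± 0.097 (SE), adjusted p = 0.00692). Its TNF-α libraries, at 20.0, 23.03 and 20.3 FPKM, lay between these groups.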
